A study of Mus musculus with 12 samples.

Results

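The retinal progenitor genes described here are 10 genes that retinal progenitor cells (RPCs) use to keep their identity and to divide: Rax, Pax6, Six3, Six6, Sox2, Hes1, Hes5, Notch1, Ccnd1 and Fgf15. They were chosen by name, out of 21911 protein-coding genes with a CpG, and not by a rule on measured values. Earlier results of these data were known when they were chosen. The locus of each gene was its GENCODE M21 gene on mm10 with 5 kb on each side, and every listed region that overlapped a locus was taken. All 10 genes had at least 1 region, 186 regions in all, of 193836 in the WGBS list and 592906 in the bACE-seq list. Genomic DNA came from whole retinas of mice at postnatal day 21 (P21). The Cre- group, labelled C57 BL/6J and wild type, came from breeders without Cre and carried no Cre transgene. The Tet tcKO group was homozygous for loxP alleles of Tet1, Tet2 and Tet3 and carried a Cre-GFP transgene, whose Cre is expressed in RPCs and is known to be mosaic. Per the study's methods, Cre carriers were in-crossed to reduce this mosaicism. Each group had 3 libraries per assay, 12 in all, and per the study's methods retinas of a pair of animals were pooled. Whole-genome bisulfite sequencing (WGBS) reads 5-methylcytosine (5mC) and 5-hydroxymethylcytosine (5hmC) together, and bACE-seq reads 5hmC alone.

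The lists are the authors' differentially methylated regions, with 1 mean level per group and region. They give no replicate values and no read depth, so no level below has an error and no difference was tested here. Every region was listed because the authors' own test called it, so its levels describe called regions, and a stretch outside them is not shown to be unchanged. A region is called a WGBS gain or a WGBS loss where the WGBS mean was higher or lower in Tet tcKO, and a 5hmC loss where the 5hmC mean was lower. The lists hold no transcript levels, so the loss of the Tet genes themselves was not checked here. Vessels and microglia, which do not come from RPCs, are also part of a whole retina.

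RPCs are the multipotent cells that give rise to every neuron class of the retina and to Müller glia. Rax, Pax6, Six3 and Six6 are homeodomain transcription factors of the eye field, and Sox2 keeps RPCs competent to form neurons. The receptor Notch1 and its repressor targets Hes1 and Hes5 hold RPCs undifferentiated, Ccnd1 (cyclin D1) drives their G1 phase, and Fgf15 is a secreted growth factor. At P21 the mouse retina has left neurogenesis, and several of these genes stay on in mature cells, such as Pax6 and Six3 in amacrine and ganglion cells and Sox2 and Hes1 in Müller glia. TET enzymes oxidise 5mC to 5hmC, a step towards unmodified cytosine.

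At the progenitor genes WGBS regions went in both directions, while all 108 5hmC regions were lower in Tet tcKO. WGBS gains numbered 65 at 9 of the 10 genes (76.8% of protein-coding genes held a gain), with Six6 the exception. WGBS losses numbered 13 at 6 genes (4.91% of protein-coding genes held a loss): Six3, Six6, Sox2, Hes1, Hes5 and Notch1. Among the 14996 protein-coding genes with at least 248 CpGs in the locus, the smallest number at any of the 10 genes, 93.8% held a gain and 6.42% a loss. Losses were thus 16.7% of the 78 WGBS regions at these genes, beside 1.38% of the whole WGBS list. 8 of the 13 losses lay at Six3 and Six6, and without these 2 genes 5 of 66 WGBS regions (7.58%) were losses. Six3, Six6 and Hes1 held at least 2 losses each (0.954% of protein-coding genes did). All 10 genes held a 5hmC loss (88.3% of protein-coding genes did) and none a 5hmC gain (0.402% did), a direction taken by 0.0353% of the whole bACE-seq list. In bulk tissue a change in the mix of cell types and a change of the mark within cells cannot be told apart, and this holds for every value below.

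Weighted by CpGs, the gains at the 10 genes averaged 43.2% in Cre- and 59.1% in Tet tcKO, a start below that of all WGBS gains (56.7% and 74.1%). The 13 losses averaged 30.8% in Cre- and 16.4% in Tet tcKO, beside 61.1% and 50.2% over all 2672 WGBS losses. The 108 5hmC losses averaged 14.9% and 3.66%, beside 16.1% and 3.86% over all 592697.

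**Figure D1:**
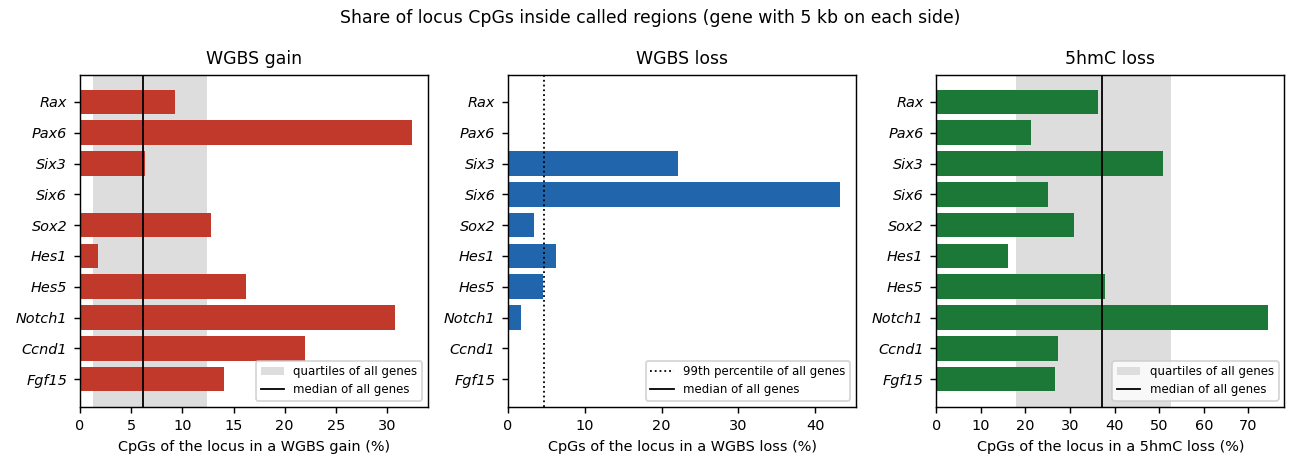
Share of the CpGs of each locus (gene with 5 kb on each side, in percent) that lay in a WGBS gain, a WGBS loss or a 5hmC loss, one bar per gene, with the median and quartiles, or for losses the 99th percentile, of 21911 protein-coding genes. Six6 (43.2%) and Six3 (22.1%) stand far past the 99th percentile of 4.71% for losses, and Notch1 has the longest bar for 5hmC losses at 74.3%.

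The share of a locus inside called regions differed widely among the 10 genes. Gains covered 32.4% of the CpGs at Pax6, 30.8% at Notch1, 21.9% at Ccnd1, 16.2% at Hes5, 14.1% at Fgf15 and 12.8% at Sox2. They covered 9.27% at Rax, 6.32% at Six3 and 1.74% at Hes1. The median over the 10 genes was 13.4%, beside 6.18% over all protein-coding genes, whose quartiles were 1.25% and 12.4%. Losses covered 43.2% of the CpGs at Six6 and 22.1% at Six3, which placed these loci 5th and 13th of the 21911. They covered 6.19% at Hes1, 4.51% at Hes5, 3.37% at Sox2 and 1.74% at Notch1. 5hmC losses covered between 16.1% (Hes1) and 74.3% (Notch1), with a median of 29.1% beside 37.2% over all genes.

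Six6, a homeobox gene of the optic vesicle and later of ganglion cell development, was the one progenitor gene with WGBS losses and no gain (0.616% of protein-coding genes held more losses than gains). Its largest loss, chr12:72940439-72944937, spanned 4499 bp and 90 CpGs, from 547 bp past the start over the end of the first exon, the intron, the second exon and the 3′ end. Its WGBS level went from 34.0% in the controls to 12.5% in Tet tcKO. The region ranked 7th by area statistic and 3rd by length among the 2672 losses. The second, chr12:72936708-72938937, lay 955 to 3184 bp before the start, held 55 CpGs and went from 47.1% to 23.3%. It ranked 27th. Both of these regions also touch 4930447C04Rik, a gene on the opposite strand whose 5′ part overlaps Six6, so they cannot be assigned to 1 of the 2 genes. Between them, 63 of the 85 CpGs within 1 kb of the start were in no region of either list.

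Downstream of Six6 followed a pair of short losses, whose sequences are shown because their whole length can be read. The first held 5 CpGs and went from 8.98% to 4.93%, and the second, inside the noncoding gene Gm26709, held 5 CpGs and went from 28.1% to 12.8%. The sequences are GRCm38, plus strand, 5′ to 3′, with each CG in capitals and 1 base added so that the last CG is whole, in the same way for all sequences below.
Six6 loss, chr12:72945139-72945195: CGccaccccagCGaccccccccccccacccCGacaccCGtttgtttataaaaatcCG
Six6 loss, chr12:72946573-72946788: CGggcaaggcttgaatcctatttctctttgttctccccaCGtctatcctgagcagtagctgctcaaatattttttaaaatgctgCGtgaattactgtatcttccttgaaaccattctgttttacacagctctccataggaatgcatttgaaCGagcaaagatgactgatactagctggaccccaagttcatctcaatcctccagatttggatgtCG
The first holds 8.77 CG per 100 bases and the second 2.31. The larger losses at Six6, with 90 and 55 CpGs, were of low density too, at 2.00 and 2.47 CpGs per 100 bp, so the first was the one dense loss there.

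Six3, the closest relative of Six6 and a repressor of Wnt signalling in the forebrain and eye, held 4 losses in its middle with gains on both sides. The largest loss, chr17:85621783-85625413, spanned 3631 bp and 142 CpGs over coding sequence, intron and untranslated exon, and went from 23.8% to 13.9%. It ranked 9th of the 2672. The loss before the coding start, chr17:85619231-85619806, went from 61.5% to 50.0% over 18 CpGs and overlaps the antisense gene Gm28528. The third, at chr17:85625615-85625777 in untranslated exon, went from 52.8% to 41.0% over 4 CpGs. The remaining loss is printed because it lay 172 to 357 bp before a transcript start of Six3, with 4 CpGs and levels of 12.5% and 7.26%.
Six3 loss, chr17:85620477-85620663, plus strand: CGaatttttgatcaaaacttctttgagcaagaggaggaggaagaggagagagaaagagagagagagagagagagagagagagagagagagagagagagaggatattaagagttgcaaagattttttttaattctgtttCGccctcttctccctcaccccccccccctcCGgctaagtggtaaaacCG
The gains at Six3 lay farther out. One, 1753 to 1906 bp before the first annotated start, went from 64.1% to 77.4%. Past the losses, the 3 others went from 56.6% to 74.1%, from 41.8% to 59.6% and from 24.3% to 48.2%. All 4 losses therefore lay between 5623 and 12169 bp from the 5′ end of the gene, and no gain lay in between.

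Genes next to Six6 and Six3 were read after their values had been seen. On the Six6 side, Six4 held 2 gains and no loss. Six2, 54975 bp from Six3, held no WGBS region in either direction. Neither of these related genes thus held a loss.

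**Figure D2:**
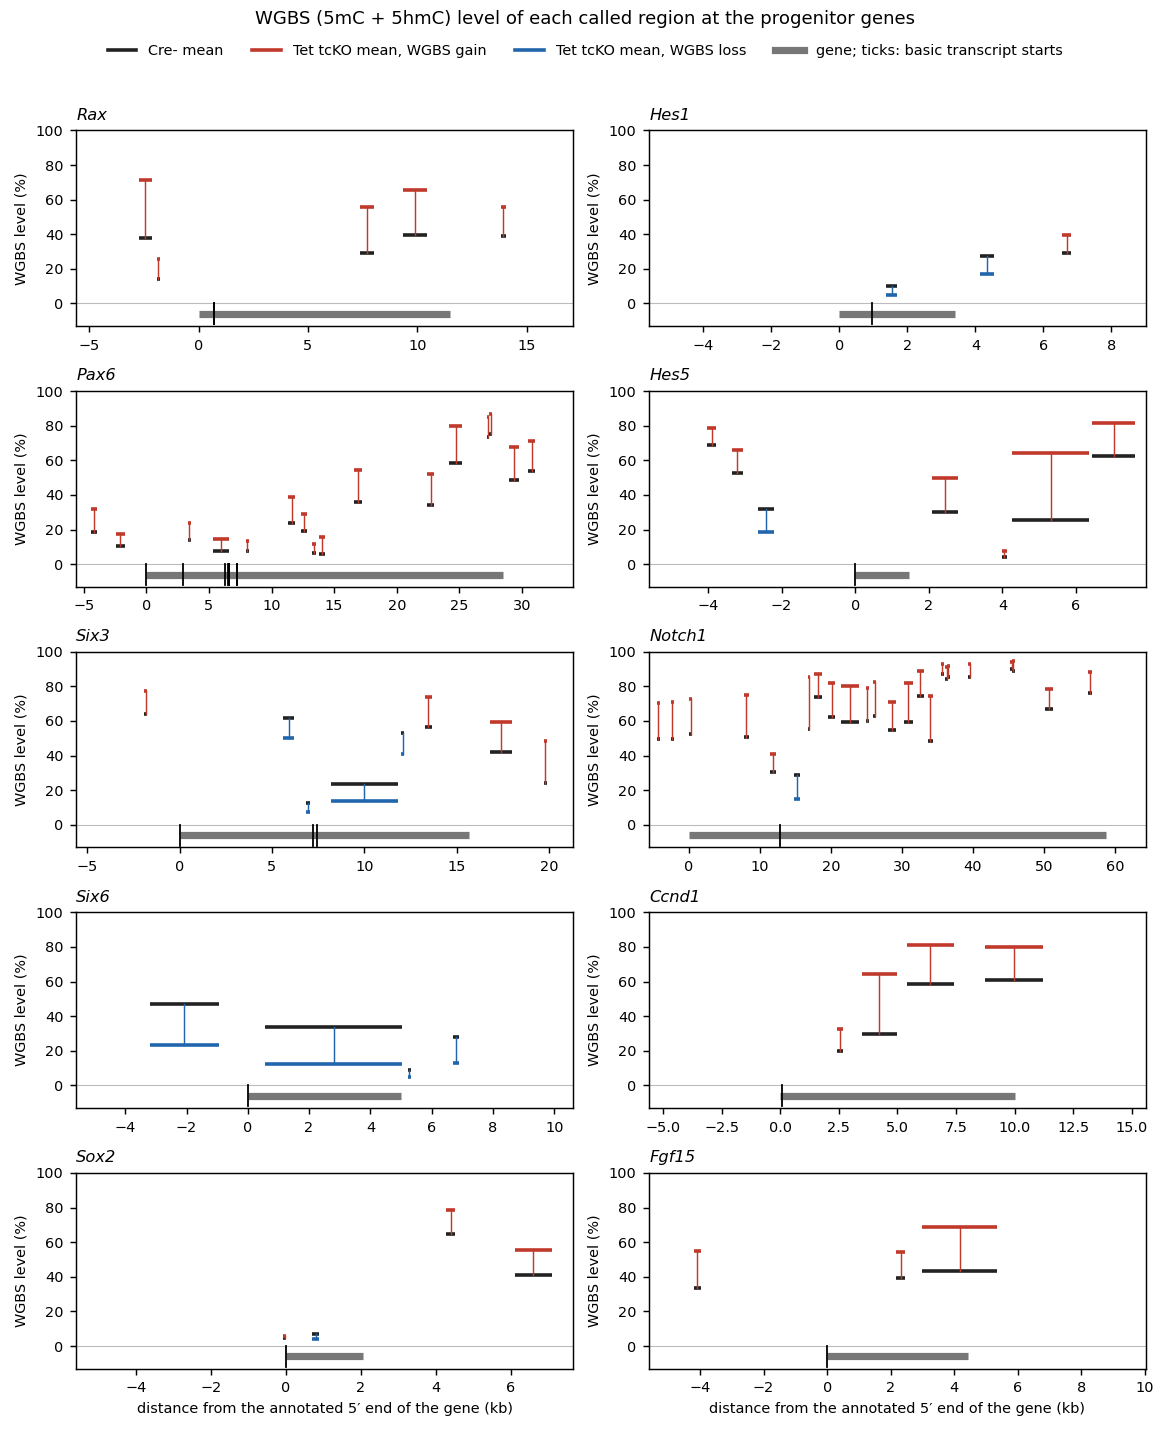
WGBS level (percent) of every called region at the 10 genes, against distance from the annotated 5′ end of the gene (kb). Each region is a black bar at the Cre- mean joined to a red bar (gain) or blue bar (loss) at the Tet tcKO mean, and ticks on the grey gene bar mark basic transcript starts. Six6 has 4 losses and no gain, Six3 has its 4 losses between gains, and Pax6 has 16 gains whose Cre- level ranges from 5.81% to 75.4%.

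Pax6, the paired-domain factor that keeps RPCs multipotent, held 16 gains and no loss. Its largest gain, chr2:105674204-105675514, spanned 1311 bp and 72 CpGs around internal transcript starts and went from 7.61% to 14.6%. It ranked 961st of the 191164 gains. 4 of the 16 gains had a Cre- mean under 10%, among them chr2:105682722-105683182, an intronic stretch that went from 5.81% to 15.4%. The gain nearest the first start, 1716 to 2439 bp before it, went from 10.4% to 17.4%, inside the antisense gene Pax6os1 as well. Toward the 3′ end the starting levels were higher, as at an intronic gain that went from 58.6% to 79.5% and at the last exon, from 75.4% to 86.8%. The changes ran from 5.37 to 20.9 points. All 92 CpGs within 1 kb of the first annotated start were in no region of either list.

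Rax, the retina and anterior neural fold homeobox gene, held 5 gains and no loss. The largest lay 2146 to 2739 bp before the 5′ end of the gene and went from 37.9% to 71.2%, the widest change of the 5. The gain nearest that end lay 1803 to 1892 bp before it, with 4 CpGs, and went from 14.0% to 25.7%. A pair of intronic gains went from 39.3% to 65.6% and from 29.3% to 55.6%, and one past the 3′ end from 39.2% to 55.5%. No CpG within 1 kb of the 5′ end, and no exonic CpG outside that window, lay in a WGBS region.

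Sox2, an intronless SoxB1 gene, held 3 gains and 1 loss, and the changes at the gene itself were small. The gain across the start, chr3:34650334-34650413, held 16 CpGs in 80 bp and went from 4.46% to 6.05%. The loss lay in the coding exon, 699 to 879 bp past the start, and went from 6.83% to 4.21% over 14 CpGs. Both changes were under 3 points in stretches that were nearly unmodified in each group. The coding loss is shown for its CpG density.
Sox2 loss, chr3:34651104-34651285, plus strand: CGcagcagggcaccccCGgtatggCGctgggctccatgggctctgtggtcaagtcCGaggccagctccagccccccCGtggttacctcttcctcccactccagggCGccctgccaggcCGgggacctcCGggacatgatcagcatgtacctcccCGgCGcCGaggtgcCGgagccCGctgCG
It holds 7.69 CG per 100 bases. The larger gains at Sox2 lay downstream, at chr3:34656508-34657509, which went from 41.0% to 55.4% over 33 CpGs, and at chr3:34654684-34654924, which went from 64.9% to 78.4%. All of these regions lie inside Sox2ot, the long noncoding RNA gene that surrounds Sox2.

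Notch1, the main Notch receptor of RPCs, held 23 gains and 1 loss over 58761 bp of gene. GENCODE places the 5′ end of the gene 12841 bp before the start of its one basic transcript, so both points are used below. The largest gain, chr2:26492751-26495258, an intronic stretch of 2508 bp and 31 CpGs, went from 59.1% to 80.4%. The gains covered coding exons too, where starting levels were high: 6 of the 23 changed by less than 10 points, and the highest, in coding sequence at chr2:26471154-26471240, went from 89.8% to 94.0%. The lowest starting level among the gains, 30.4% rising to 41.1%, was at chr2:26504383-26505241, 561 to 1419 bp before the transcript start. The single loss, chr2:26500976-26501909, lay 1913 to 2846 bp past the transcript start and went from 28.9% to 14.9% over 18 CpGs. It was thus flanked by a gain before the start and by gains from 3974 bp onward. Weighted over CpGs, the 23 gains went from 63.2% to 78.8%, the highest levels of the 10 genes.

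Hes1, the Notch-driven repressor whose level oscillates in progenitors, held 2 losses and 1 gain. The largest loss, chr16:30068514-30068934, lay past the 3′ end with 21 CpGs and went from 27.5% to 17.0%. The other, chr16:30065743-30066089, lay 403 to 749 bp past the transcript start over coding exon and intron and went from 10.0% to 5.10%. The gain, at chr16:30070925-30071208, went from 28.9% to 39.8%. The 172 CpGs within 1 kb of the 5′ end of the gene were in no region. Next to the second loss lay the most CpG-dense 5hmC loss of the locus, with 10 CpGs and levels of 1.71% and 0.317%.
Hes1 5hmC loss, chr16:30066223-30066294, plus strand: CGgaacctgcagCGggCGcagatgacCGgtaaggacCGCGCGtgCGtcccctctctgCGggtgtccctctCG

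Hes5, a second Notch-driven repressor, held 6 gains and 1 loss. The loss, chr4:154958277-154958715, lay 2208 to 2646 bp before the start and went from 32.1% to 18.3% over 17 CpGs. Upstream of it lay gains from 52.6% to 66.1% and from 68.6% to 78.5%. The largest gain, chr4:154965186-154967286, with 25 CpGs over 2101 bp, went from 25.6% to 64.4%, a change of 38.8 points and the widest of the 65 gains. It lies in the neighbouring gene Pank4, as do the gains from 4.17% to 7.81% and from 62.3% to 81.5%, so 3 of the 6 gains are shared with that gene. The gain from 62.3% to 81.5% reaches the locus only at its outer edge. The nearest gain to the start, 2098 to 2795 bp past it, went from 30.3% to 49.7%.

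Across the Notch members, every one of Notch1, Hes1 and Hes5 held both a gain and a loss (4.37% of protein-coding genes held both). Six3 and Sox2 also did.

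Ccnd1, the main D-type cyclin of RPCs, held 4 gains and no loss. The largest, chr7:144932528-144934536, went from 58.9% to 81.3% over 39 CpGs of coding exon and intron. The longest, chr7:144928727-144931194, ran from the 3′ untranslated exon past the gene end, shared with the neighbouring gene LTO1, and went from 60.7% to 80.1%. The widest change was intronic, from 29.9% to 64.3%. The gain nearest the start, 2343 to 2610 bp past the transcript start, is shown because it holds coding sequence of 160 bases and flanking intron of 108.
Ccnd1 gain, chr7:144937259-144937527, minus strand: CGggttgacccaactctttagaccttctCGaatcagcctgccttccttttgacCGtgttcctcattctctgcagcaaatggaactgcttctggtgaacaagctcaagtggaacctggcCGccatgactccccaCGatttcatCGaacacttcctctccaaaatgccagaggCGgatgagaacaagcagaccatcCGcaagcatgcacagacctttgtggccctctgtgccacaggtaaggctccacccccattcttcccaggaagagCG
Its 9 CpGs went from 19.6% to 32.3%. No CpG within 1 kb of the start of Ccnd1 was in a region of either list.

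Fgf15 lies 28978 bp from Ccnd1 and shares no region with it. Its 3 gains went from 33.6% to 54.9% upstream, from 39.4% to 54.5% in the intron and from 43.3% to 68.8% at the 3′ end. The last was the largest, with 23 CpGs over 2363 bp. All 15 exonic CpGs outside the start-site window lay in that gain. The intronic gain lay 2179 to 2465 bp past the start.
Fgf15 gain, chr7:144898710-144898997, plus strand: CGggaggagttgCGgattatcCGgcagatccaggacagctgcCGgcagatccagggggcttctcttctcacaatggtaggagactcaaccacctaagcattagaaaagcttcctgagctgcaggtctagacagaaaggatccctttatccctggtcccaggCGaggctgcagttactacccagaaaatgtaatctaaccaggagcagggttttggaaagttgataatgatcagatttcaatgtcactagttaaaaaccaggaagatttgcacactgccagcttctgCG
Its 6 CpGs are 2.08 per 100 bases, against 5.85 per 100 bp within 1 kb of the start, where no CpG was in a WGBS region.

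**Figure D3:**
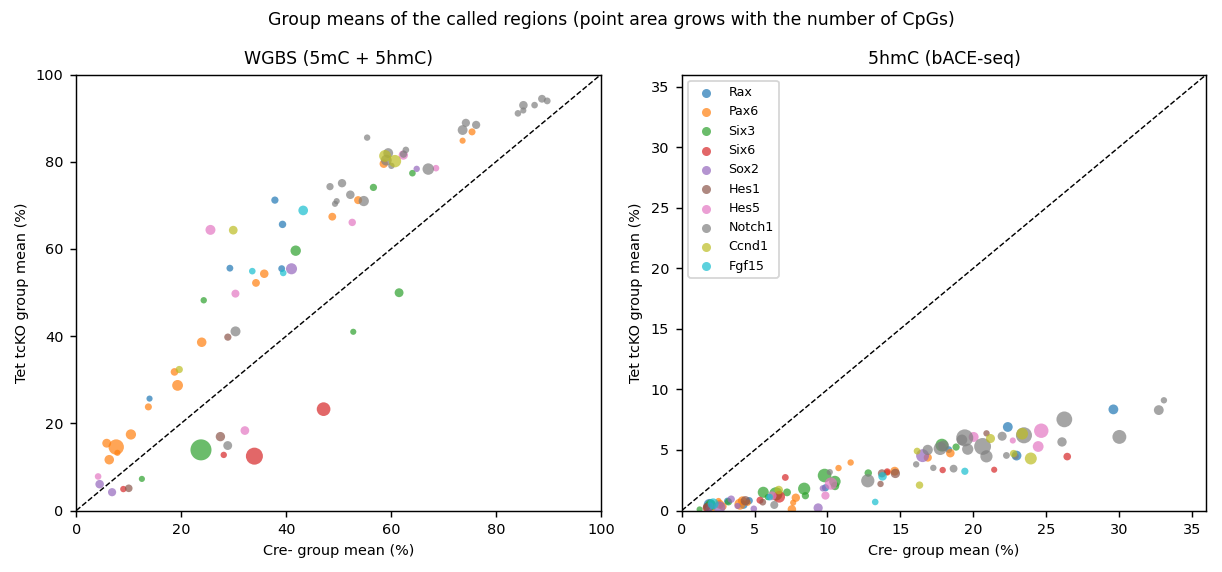
Tet tcKO against Cre- group mean (percent) for each called region at the 10 genes, WGBS on the left and 5hmC on the right, with point area growing with the number of CpGs and the dashed line marking equal means. WGBS regions lie on both sides of the line, with 13 below it, and all 108 5hmC regions lie below it.

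5hmC was lower in Tet tcKO at every called region of these genes. The CpG-weighted level went from 21.3% to 5.50% at Notch1, from 20.4% to 4.67% at Ccnd1 and from 18.1% to 4.48% at Hes5. It went from 13.7% to 3.50% at Rax, from 10.2% to 1.90% at Six6 and from 9.89% to 2.11% at Hes1. The lowest Cre- levels were at Six3 (8.77% to 2.23%), Fgf15 (8.46% to 1.50%), Sox2 (8.37% to 1.74%) and Pax6 (7.73% to 1.56%). Tet tcKO kept between 17.8% (Fgf15) and 25.8% (Notch1) of the Cre- level, and 24.5% over all 10 genes. 48 of the 108 regions had a Cre- mean under 10%, and at the lowest, a Six3 intron stretch, the means were 1.23% and 0.0915%. Per the paper, a small share of unmodified cytosines failed to convert in bACE-seq. The lowest levels lie near or below that share, and so do the CpG-weighted Tet tcKO levels of Fgf15, Pax6, Sox2 and Six6. No level and no kept share was corrected for it here.

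The largest 5hmC loss by area statistic was read at each gene. At Notch1 it was chr2:26463085-26465833, in coding exons and introns of the 3′ part, from 30.0% to 6.08%. At Ccnd1 it was chr7:144932528-144934697, from 24.0% to 4.30%, which contains the largest WGBS gain of that gene. At Hes5 it was chr4:154966861-154970171, from 24.7% to 6.59%, which overlaps Pank4 and runs past the 5 kb flank. The 5hmC losses at Hes5 held 197 CpGs, of which 143 lay in the locus. At Sox2 the largest was chr3:34656666-34659248, from 16.5% to 4.53%, and at Hes1 chr16:30070925-30072413, from 14.7% to 3.06%. At Rax the largest lay past the 3′ end, from 23.0% to 4.54%. At Six6 it was chr12:72941104-72941972, from 6.68% to 1.13%, inside the largest WGBS loss. At Six3 (6.46% to 1.37%), Pax6 (3.99% to 0.526%) and Fgf15 (2.15% to 0.559%) the largest region by area statistic had a low level and many CpGs. The Fgf15 region was also the one nearest to its start, 517 to 949 bp past it.

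**Figure D4:**
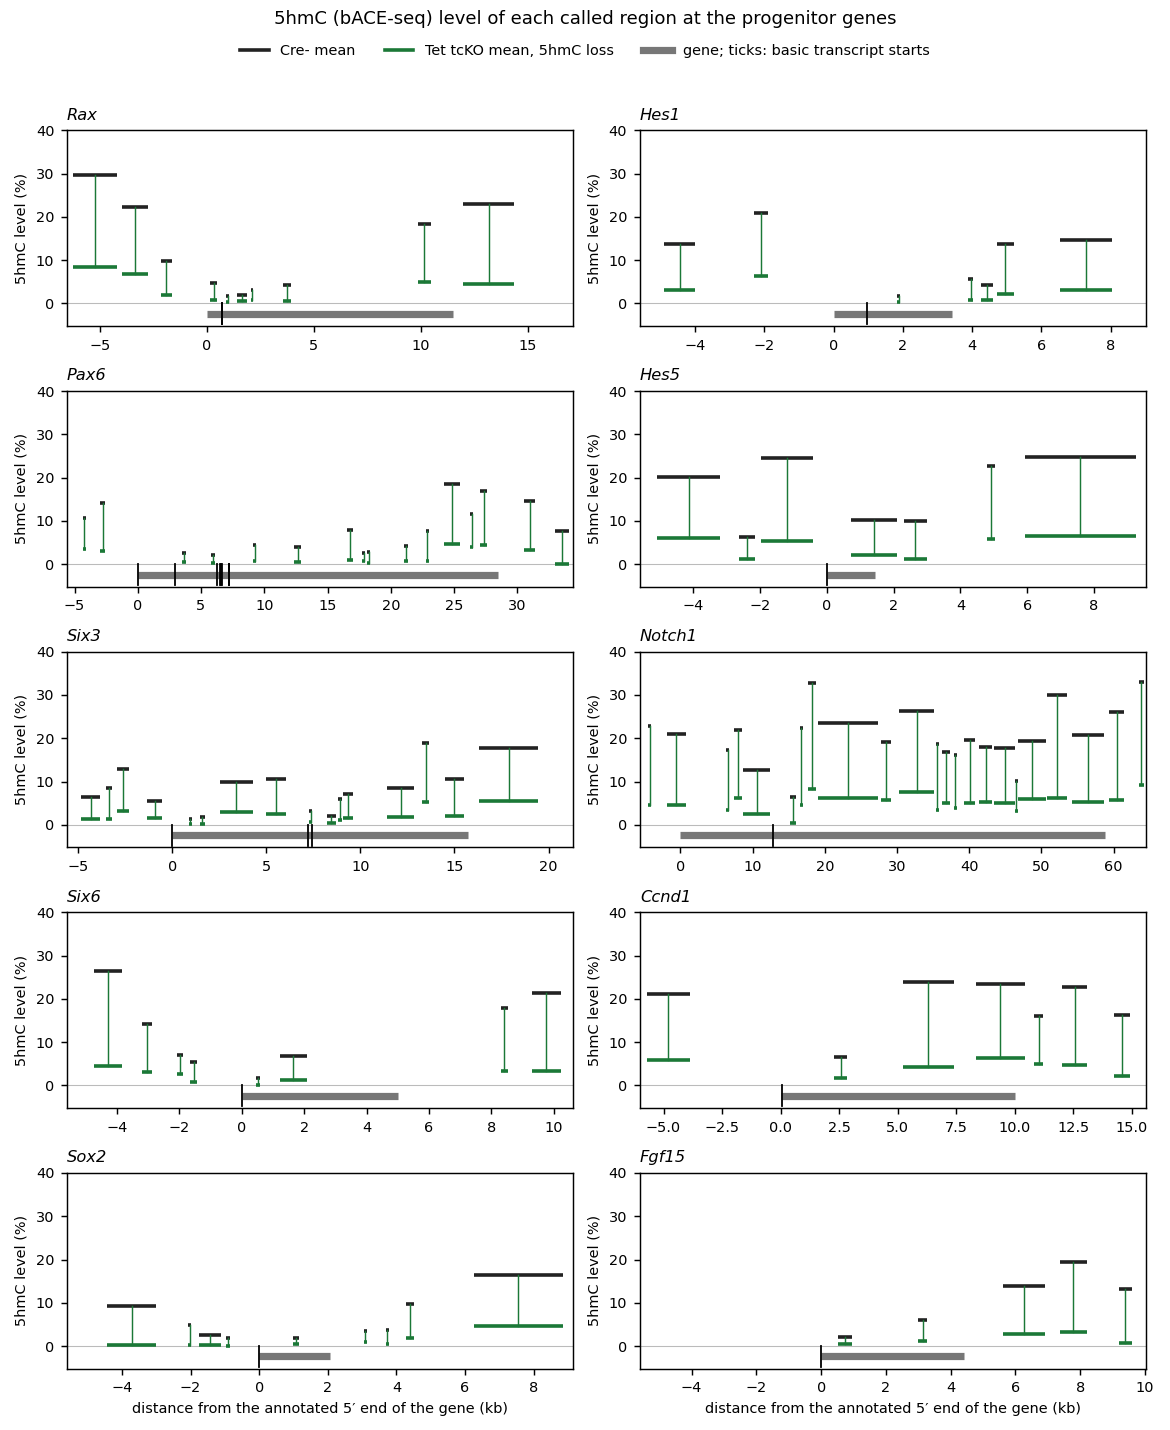
5hmC level (percent) of every called bACE-seq region at the 10 genes, against distance from the annotated 5′ end of the gene (kb), with a black bar at the Cre- mean joined to a green bar at the Tet tcKO mean. The Cre- mean was under 10% at 1 of 23 regions of Notch1 and 1 of 7 of Ccnd1, but at 10 of 16 of Pax6 and 11 of 16 of Six3.

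Read CpG by CpG, both assays could be set side by side where a CpG lay in a region of each list. Of 966 locus CpGs in a WGBS gain, 659 (68.2%) were also in a 5hmC loss. Over these the WGBS level went from 52.4% to 68.8% and the 5hmC level from 18.8% to 4.68%, so 5hmC was 35.8% of the WGBS level in Cre- and 6.80% in Tet tcKO. The WGBS level minus the 5hmC level, an estimate of 5mC from separate libraries, went from 33.7% to 64.1%. At CpGs picked for a WGBS gain and a 5hmC loss this difference can only rise. Coverage by a 5hmC loss differed among genes, from 314 of 319 gain CpGs at Notch1 and 88 of 109 at Ccnd1 to 117 of 295 at Pax6 and 7 of 35 at Fgf15.

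Of 404 CpGs in a WGBS loss, 187 (46.3%) were also in a 5hmC loss. There the WGBS level fell by 14.9 points, from 34.0% to 19.1%, and the 5hmC level by 4.95 points, from 6.21% to 1.26%. The difference between the assays therefore went from 27.8% to 17.8%. Unlike at the gains, the selection of these CpGs did not fix the direction of that difference. At Six6 alone the WGBS level over 65 such CpGs went from 38.4% to 16.1% and the 5hmC level from 6.98% to 1.42%. At Six3, over 79 CpGs, the levels went from 32.9% to 22.6% and from 6.00% to 1.32%. The fall in WGBS level was larger than the fall in 5hmC level at both genes, while WGBS and bACE-seq regions were called separately and no error can be given for either.

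Most CpGs at the start sites were outside called regions. Within 1 kb of the annotated 5′ ends of the 10 genes, 855 of 1053 CpGs (81.2%) were in no region of either list. A gain reached the window at Sox2 and Notch1 (32.3% of protein-coding genes had a gain there), at 16 CpGs each and of 171 and 28 CpGs in the window. A loss reached it at Six6 and Sox2 (1.02% of genes), at 16 of 85 and 14 of 171 CpGs. A 5hmC loss reached it at 7 of the 10 genes (63.6% of genes), the exceptions being Pax6, Hes1 and Ccnd1. With every GENCODE basic transcript start in place of the gene's 5′ end, the share of start-site CpGs in a gain was 8.02% in place of 3.04%. Of those 118 CpGs, 84 were at the internal starts of Pax6, and Notch1 had 18 of 129. The share in a loss was then 4.76% in place of 2.85%, with Six3 (29 of 212 CpGs) and Hes1 (11 of 95) added.

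By position in the gene, outside the start-site windows, gains covered 26.7% of intronic and 19.2% of exonic CpGs, 10.8% of CpGs in the 5′ flanks and 21.4% in the 3′ flanks. Losses covered 13.4% of exonic CpGs, most of them at Six3 (93) and Six6 (57) of 153. 5hmC losses covered 49.0% of intronic, 43.8% of exonic, 41.5% of 5′ flank and 39.0% of 3′ flank CpGs.

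**Figure D5:**
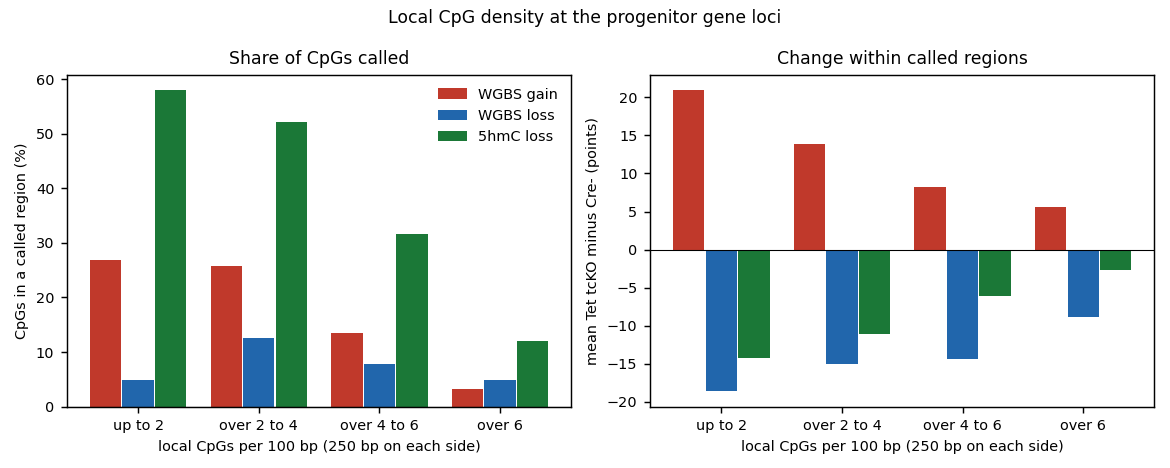
Share of locus CpGs in called regions (percent, left) and mean Tet tcKO minus Cre- within them (percentage points, right), by the number of CpGs per 100 bp in the 250 bp on each side of a CpG, over the 10 loci. Gains cover 26.8% of CpGs in the sparsest class and 3.27% in the densest, where their mean change is 5.58 points.

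Local CpG density went with both the share called and the size of the change. Of 1583 CpGs with up to 2 CpGs per 100 bp, 26.8% lay in a gain, with a mean change of 21.0 points, and 58.0% lay in a 5hmC loss, with a mean fall from 18.9% to 4.61%. Of 1591 CpGs with over 6 per 100 bp, 3.27% lay in a gain, with a mean change of 5.58 points, and 11.9% in a 5hmC loss, from 3.43% to 0.712%. The share in a loss did not fall steadily: it was 4.80% in the sparsest class, 12.6% and 7.83% in the middle classes and 4.84% in the densest. The mean change within losses was -18.6 points in the sparsest class, then -15.0 and -14.4, and -8.82 points in the densest. Each CpG takes the means of its whole region, so these values rest on 13 losses. Of their 404 CpGs, 142 were in the largest loss at Six3 and 90 and 55 in the larger ones at Six6. A trend with density was not tested. Promoter sequences of RefSeq (GRCm38, 300 bases) were found for 6 of the 10 genes, and their CG density was between 4.67 (Six3) and 13.7 (Hes5) per 100 bases, beside a median of 2.33 over 32851 promoters.

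Related genes were read from lists of known members of the same pathways, beside the 76.8% of protein-coding genes that held a gain and the 4.91% that held a loss (93.8% and 6.42% of those with at least 248 CpGs). A gain at all or nearly all genes of a list is close to these shares. Of 8 further progenitor factors, all held a gain, over a median of 28.6% of their CpGs, and 2 held a loss (Lhx2 and Meis1). The lowest share, 13.5%, was at Meis2. Of 10 other Notch pathway genes, all held a gain, from 3.67% of CpGs at the ligand Dll1 to 22.4% at the ligand Jag1, and 2 held a loss (Dll1 and Maml1). The loss at Dll1 went from 24.4% to 13.8%. Of 6 neurogenic factors, 5 held a gain and none a loss, with Olig2 without a gain and Neurod1 highest at 25.4%. Of 10 other cell cycle genes, all held a gain and 1, Rb1, a loss, with shares in gains from 4.30% at Rb1 to 26.9% at E2f1. Of 8 FGF signalling genes, all held a gain, from 5.50% at Fgfr3 to 24.4% at Fgf9, and 2 held a loss (Fgfr2 and Fgfr3).

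Genes of the cells that RPCs form were read in the same way. Of 7 Müller glia genes, all held a gain and none a loss, both close to the shares over all protein-coding genes (76.8% and 4.91%). The median share of CpGs in gains was 14.3%, beside 13.4% at the progenitor genes. The rod fate factors Nrl and Nr2e3 had gains over 57.3% and 65.4% of their CpGs, going from 42.8% to 73.2% and from 43.5% to 75.6%. None of the 10 progenitor genes reached that share, and neither rod factor held a loss. These shares are descriptions of few genes and the differences were not tested.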

How the data were processed

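Genomic DNA of P21 retinas was profiled by WGBS and bACE-seq in 3 Cre- and 3 Tet tcKO libraries per assay, with groups taken from the sample labels. Per the study's methods and the submitters' processing notes, reads were trimmed (Trim Galore 0.4.4), aligned to mm10 (Bismark 0.18.2), stripped of duplicates (Picard), and summarised per CpG (MethylDackel 0.6.1). DSS then smoothed levels, tested each CpG and joined CpGs into regions. Group means were deposited as a fraction of modified reads and are given here in percent. A deposited score per region, the area statistic (test statistics added up over its CpGs), served only to rank regions and for a stricter threshold. The authors' difference column was not used. Which mean belongs to which group follows the name of the deposited lists.

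Here each change was Tet tcKO minus Cre-. Regions overlapped a gene locus by at least 1 bp, and CpGs were read from GRCm38, on which every region started on the C of a CpG. Exons and starts came from GENCODE M21 (basic). Levels over several regions were weighted by CpGs, with regions that ran past a flank counted whole. All genes were described; per gene and list the region with the largest area statistic, the one nearest the start and any of the rarer direction were named, and related lists by their highest and lowest shares, with some genes not reported here and others chosen after their values were seen. The genes and lists were chosen with earlier results of these data known. Alternatives were larger minimum CpG numbers and differences, a stricter statistic, other flanks and start windows, regions with most of their length inside, unweighted means and all transcript starts. Interval counts were checked on simulated data. Python 3.11.15 with numpy, pandas and scipy was used.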

Additional observations from a re-analysis of the deposited data

How the results depend on the processing

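Of 132 alternative values for 18 results, 85 stayed within the yardstick used and 47 moved. The yardstick was 1.5 times a count, or the 95% binomial interval of a share or level with CpGs as units. A change of direction was not looked for, because regions were sorted into gains and losses before counting. No paired analysis was possible because the lists hold 1 mean per group, and for the same reason no replicate could be left out. Replicate spread and depth were not analysed here.

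With regions of at least 10 CpGs, 36 gains and 68 5hmC losses were left, over 14.2% and 34.5% of locus CpGs. With a difference of at least 0.1, 8 losses and 53 5hmC losses were left, and gains, losses and 5hmC losses covered 12.9%, 4.13% and 22.4% of CpGs. The gains then averaged 49.0% and 68.1%, losses 38.4% in Cre-, and 5hmC losses 21.1% and 5.36%. With a difference of at least 0.2, 18 gains, 6 5hmC losses and 2 WGBS losses, both at 1 gene (Six6), were left, beside 0.525% of protein-coding genes with such a loss. These covered 4.78%, 2.21% and 2.63% of CpGs, with gains at 47.5% and 73.2%, losses at 39.0% in Cre- and 5hmC losses at 29.7% and 6.76%. With the stricter statistic (p of 0.001), 8 losses were left, gains, losses and 5hmC losses covered 14.7%, 6.39% and 33.7%, and 5hmC losses averaged 16.6% in Cre-. These thresholds remove regions by construction. Losses stayed at 5 genes with a difference of at least 0.1 (2.01% of protein-coding genes) and with the stricter statistic (2.70%).

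Without flanks, 43 gains, 8 losses and 59 5hmC losses were left, over 20.2%, 8.85% and 41.8% of CpGs. With 10 kb flanks, losses covered 5.94% and 5hmC losses 43.1%, and all 10 genes held a gain (80.9% of protein-coding genes did). Unweighted means were 46.4% and 62.4% for gains and 12.8% in Cre- for 5hmC losses. Start-site windows of 2 kb held 6.03% of CpGs in losses and 22.9% in 5hmC losses. Windows at every basic transcript start held 8.02% in gains, 4.76% in losses and 17.4% in 5hmC losses. The alternatives for WGBS losses, as members with a loss, share, level and start-site share, were added after seeing the data.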
